A study of Mus musculus with 6 samples.

Results

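The interferon response and MHC class I antigen presentation were described through 37 genes in cultured primary brown adipocytes of wildtype (WT) mice and of mice without a functional *Ucp1* gene (Ucp1-KO). The members were named genes of this response, each represented by its most abundant RefSeq transcript (accessions starting with NM or NR). They had 50 of the 28890 RefSeq rows of the table, which covered 22466 genes, and all 37 passed the minimum mean of 0.5 RPKM that 16865 transcripts of 12259 genes reached.

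Stromal-vascular cells from interscapular brown fat were differentiated in the dish, with 3 independent cultures of each genotype. The WT cultures are replicates 10, 11 and 12 and the Ucp1-KO cultures, labelled UCP1(-/-), replicates 13, 14 and 15. Donors of both genotypes were male mice on the 129SvEvS1 background, aged 5 to 6 weeks. All 6 cultures received the same induction mix (IBMX, indomethacin, dexamethasone, insulin, T3 and rosiglitazone) for 2 days, followed by differentiation medium for 7 days, and no treatment with interferon or an adrenergic agonist is stated for them. The Ucp1-KO allele still gives a remnant transcript without exons 2 and 3. *Ucp1* was listed at 1775, 981 and 1157 RPKM in the WT cultures and at 307, 409 and 398 RPKM in the Ucp1-KO cultures, so every Ucp1-KO value lay below every WT value. Between 14989607 and 17727648 reads stood behind the values of a culture. Of the 10 brown adipocyte markers, all of which were tested, *Fabp4* lay between 26399 and 29312 RPKM and *Plin1* between 389.5 and 456 RPKM, while *Cidea* ranged from 615 RPKM in WT replicate 11 to 1371 RPKM in Ucp1-KO replicate 15 and *Elovl3* from 40.5 RPKM in WT replicate 11 to 225 RPKM in Ucp1-KO replicate 13. Stromal markers summed to 2268 RPKM in WT replicate 11 and to between 944 and 1417 RPKM in the others, and endothelial markers to 44.7 RPKM in WT replicate 11 and to between 3.35 and 20.04 RPKM in the others. Markers of macrophages and leukocytes set Ucp1-KO replicate 14 apart, with a sum of 1179.9 RPKM against 50.1 to 295 RPKM in the other cultures, so results are also given without it.

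Interferons are secreted proteins that alert cells to infection. Type I interferons act through a receptor whose kinases activate transcription factors, among them STAT2, which joins IRF9 at interferon-stimulated response elements in promoters, while interferon gamma acts at gamma-activated sites. Target genes include sensors of viral RNA, further transcription factors, antiviral effectors, GTPases that attack intracellular parasites, and the machinery that loads peptides onto MHC class I molecules for display to cytotoxic T cells. Part of the response is active at a low level without infection, and adipocytes as well as macrophages can express it.

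The promoters of 30 members were found in the RefSeq promoter table (GRCm38.p6), and those of *Usp18*, *Mx2*, *Ifi27*, *Iigp1*, *Parp9*, *Parp14* and *Rtp4* were not analysed here. The 250 bases before each gene start were searched on both strands for the core of the interferon-stimulated response element, GAAANNGAAA, and for the palindromic gamma-activated site, TTCNNNGAA. The response element core was found for 13 of the 30 members (43.3%), against 3.46% of the 27025 genes of the table and 3.11% of the 9140 genes that were also tested here. The gamma-activated site was found for 6 of 30 (20%), against 8.13% of all genes. All 4 GTPase genes with a promoter and 6 of 12 antiviral effectors held the response element core. It was found for 1 of 4 genes of MHC class I presentation, *B2m*, and for 0 of 4 sensors. With 1 mismatch allowed it was found for 4 of 4 sensors and still for 1 of 4 genes of MHC class I presentation, against 34.7% of all genes. These matches are descriptions of letters in a window and not binding sites. The stretches below come from each of the groups that held a match and show how the element differs in position and number, with the matched core in capitals. Where the core reads TTTCNNTTTC, it lies on the opposite strand. Neighbouring cores share bases in *Isg15*, *Bst2*, *Gbp3* and *Irgm1*.
Isg15 (chr4:156200845-156200926, minus strand, 108 to 27 bases before the start): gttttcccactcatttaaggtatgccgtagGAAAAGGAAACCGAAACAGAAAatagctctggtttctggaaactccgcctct
Ifit1 (chr19:34640755-34640843, plus strand, 134 to 46 bases before the start): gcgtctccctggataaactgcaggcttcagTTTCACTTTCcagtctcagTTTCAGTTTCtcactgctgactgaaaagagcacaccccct
Bst2 (chr8:71537557-71537632, minus strand, 160 to 85 bases before the start): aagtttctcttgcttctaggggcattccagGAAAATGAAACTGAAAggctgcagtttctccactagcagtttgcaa
Stat2 (chr10:128270248-128270315, plus strand, 250 to 183 bases before the start): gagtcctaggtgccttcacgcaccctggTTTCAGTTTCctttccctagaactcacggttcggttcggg
Gbp3 (chr3:142559969-142560043, plus strand, 75 to 1 bases before the start): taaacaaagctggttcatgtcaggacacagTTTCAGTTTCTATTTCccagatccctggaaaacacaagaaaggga
Irgm1 (chr11:48871421-48871480, minus strand, 60 to 1 bases before the start): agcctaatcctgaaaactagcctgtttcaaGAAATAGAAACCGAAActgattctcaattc
B2m (chr2:122147518-122147587, plus strand, 169 to 100 bases before the start): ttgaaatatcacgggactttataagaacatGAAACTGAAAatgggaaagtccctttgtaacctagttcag
Cxcl10 (chr5:92349063-92349132, minus strand, 243 to 174 bases before the start): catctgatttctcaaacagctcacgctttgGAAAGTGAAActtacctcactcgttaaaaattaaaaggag

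Abundance below is given in RPKM, that is reads scaled to transcript length and to sequencing depth, always with WT replicates 10, 11 and 12 in this order and then Ucp1-KO replicates 13, 14 and 15. RNA was extracted from whole cultures, so that more cells of a type cannot be told apart from more RNA per cell.

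Antiviral effectors were the largest group, with 15 members. *Ifi27*, which encodes a small mitochondrial membrane protein, was the most abundant of them at 641, 549 and 428 RPKM in the WT cultures, against 660.2, 636 and 619 RPKM in the Ucp1-KO cultures. It varied less than the other members, the genotypes overlapped, and WT replicate 12 was the lowest culture. *Bst2*, which encodes tetherin, a protein that holds budding virus at the cell surface, stood at 68.5, 45.03 and 22.4 RPKM in the WT cultures, against 75.9, 201 and 34.2 RPKM in the Ucp1-KO cultures. *Isg15* encodes a ubiquitin-like modifier and was measured at 36.7, 31.9 and 15.5 RPKM in the WT cultures, against 43.5, 105 and 11.7 RPKM in the Ucp1-KO cultures. For both genes Ucp1-KO replicate 14 was the highest culture, whereas Ucp1-KO replicate 15 lay within or below the range of the WT cultures. *Rtp4*, a regulator of receptor export and of viral replication, had 19.9, 16.8 and 6.49 RPKM in the WT cultures, against 36.5, 63.7 and 7.85 RPKM in the Ucp1-KO cultures. *Xaf1*, a proapoptotic protein, had 24.4, 19.1 and 11.5 RPKM in the WT cultures, against 29.7, 49.04 and 9.86 RPKM in the Ucp1-KO cultures. Both were highest in Ucp1-KO replicate 14 and next highest in Ucp1-KO replicate 13, and their low values came from WT replicate 12 and Ucp1-KO replicate 15. *Ifi35*, an interferon-induced signalling protein, was at 16.7, 14.4 and 11.3 RPKM in the WT cultures, against 21.2, 25.7 and 11.9 RPKM in the Ucp1-KO cultures. *Samd9l*, a restriction factor of virus translation, was at 12.2, 9.08 and 6.18 RPKM in the WT cultures, against 14.7, 20.4 and 4.96 RPKM in the Ucp1-KO cultures. The 6 cultures kept the same pattern, with a narrower range for *Ifi35*.

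Genes of the *Ifit* family encode proteins that bind viral RNA. *Ifit1* was measured at 7.59, 11.1 and 4.64 RPKM in the WT cultures, against 11.7, 26.4 and 4.097 RPKM in the Ucp1-KO cultures. *Ifit3* was measured at 4.57, 7.95 and 2.77 RPKM in the WT cultures, against 6.51, 19.3 and 2.104 RPKM in the Ucp1-KO cultures. *Ifit1* was next highest in Ucp1-KO replicate 13 and *Ifit3* in WT replicate 11, both behind Ucp1-KO replicate 14, and both were lowest in Ucp1-KO replicate 15. The *Ifit* genes are neighbours on chromosome 19 (*Ifit2*, chr19:34550694-34576419, *Ifit3*, chr19:34583531-34588731, *Ifit1*, chr19:34640871-34650009, GENCODE M21 on GRCm38). *Oasl2*, a 2'-5' oligoadenylate synthetase-like protein, reached 5.36, 6.34 and 3.45 RPKM in the WT cultures, against 6.77, 17.5 and 2.77 RPKM in the Ucp1-KO cultures. *Ifi44*, which restrains virus growth, had 4.13, 4.43 and 1.61 RPKM in the WT cultures, against 5.81, 23.9 and 0.9403 RPKM in the Ucp1-KO cultures. The gap between Ucp1-KO cultures was widest for *Ifi44*, with a 25.4-fold ratio of RPKM between replicates 14 and 15. *Mx2*, *Ifit2*, *Oas1a* and *Rsad2* had means under 5 RPKM, from 1.43 RPKM for *Rsad2* upwards, and were all highest in Ucp1-KO replicate 14.

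Transcription factors and signalling genes had 8 members. *Irf7*, the factor that amplifies the type I response, stood at 15.7, 12.5 and 5.81 RPKM in the WT cultures, against 17.3, 95.4 and 7.18 RPKM in the Ucp1-KO cultures. Ucp1-KO replicate 14 exceeded the next culture by 5.51-fold in RPKM, more than for any other member, while the other 5 cultures overlapped between genotypes. *Irf9* and *Stat2*, whose products bind response elements together, varied less. *Irf9* had 12.6, 11.7 and 8.21 RPKM in the WT cultures, against 14.1, 18.99 and 9.396 RPKM in the Ucp1-KO cultures. *Stat2* had 10.03, 10.8 and 7.33 RPKM in the WT cultures, against 11.6, 18.3 and 5.68 RPKM in the Ucp1-KO cultures. *Irf1*, a factor that drives MHC class I genes and responds to interferon gamma, was at 7.26, 11.9 and 9.74 RPKM in the WT cultures, against 9.04, 12.5 and 7.58 RPKM in the Ucp1-KO cultures. The order of cultures was another one here, with WT replicate 11 close to Ucp1-KO replicate 14 and WT replicate 10 the lowest. *Usp18*, which removes ISG15 and blocks the type I receptor, was at 3.84, 4.13 and 1.59 RPKM in the WT cultures, against 6.33, 13.01 and 2.599 RPKM in the Ucp1-KO cultures. For *Usp18*, Ucp1-KO replicate 14 was 5.004-fold above replicate 15 in RPKM.

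*Parp9*, *Parp14* and *Dtx3l* encode ADP-ribosyltransferases and their E3 ligase partner. *Parp9* was at 15.5, 17.3 and 12.9 RPKM in the WT cultures, against 19.1, 25.1 and 13.3 RPKM in the Ucp1-KO cultures. *Dtx3l* was at 4.96, 5.87 and 4.66 RPKM in the WT cultures, against 6.14, 11.2 and 4.75 RPKM in the Ucp1-KO cultures. *Parp14* was at 3.72, 5.46 and 3.18 RPKM in the WT cultures, against 4.65, 11.8 and 2.54 RPKM in the Ucp1-KO cultures. All 3 were highest in Ucp1-KO replicate 14. *Dtx3l* (chr16:35926511-35939151, minus strand) and *Parp9* (chr16:35938470-35972605, plus strand) overlap at their starts, and the library kit did not mark strand, so reads of the overlap cannot be told apart.

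The 4 sensors of viral RNA shared their highest and lowest cultures. *Eif2ak2*, the kinase PKR that halts translation, had 12.6, 11.6 and 10.6 RPKM in the WT cultures, against 16.4, 19.3 and 10.02 RPKM in the Ucp1-KO cultures. *Trim25*, the ligase that activates RIG-I, had 10.04, 12.8 and 9.32 RPKM in the WT cultures, against 14.2, 20.2 and 8.41 RPKM in the Ucp1-KO cultures. *Ddx58*, which encodes RIG-I, had 10.95, 9.55 and 6.77 RPKM in the WT cultures, against 12.4, 18.8 and 5.91 RPKM in the Ucp1-KO cultures. Ucp1-KO replicate 14 was highest, replicate 13 next and replicate 15 lowest for all of these, and *Ifih1*, which encodes MDA5 and had a mean under 5 RPKM, followed that order.

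The interferon-inducible GTPases had 5 members. *Iigp1*, an immunity-related GTPase that acts on parasite vacuoles, had 26.4, 33.3 and 19.5 RPKM in the WT cultures, against 37.9, 80.8 and 17.9 RPKM in the Ucp1-KO cultures. The related *Irgm1* had 8.63, 10.2 and 6.16 RPKM in the WT cultures, against 12.3, 18.4 and 6.17 RPKM in the Ucp1-KO cultures. *Igtp* had 8.43, 7.91 and 3.82 RPKM in the WT cultures, against 11.6, 17.8 and 4.85 RPKM in the Ucp1-KO cultures. Ucp1-KO replicates 14 and 13 were the highest cultures for all of these GTPases. Among the guanylate-binding proteins, *Gbp2* was at 12.002, 9.35 and 6.36 RPKM in the WT cultures, against 12.7, 18.3 and 6.41 RPKM in the Ucp1-KO cultures. *Gbp3* was at 12.5, 7.15 and 3.78 RPKM in the WT cultures, against 15.98, 27.9 and 6.497 RPKM in the Ucp1-KO cultures. Both were highest in Ucp1-KO replicates 14 and 13 and lowest in WT replicate 12. Members of the *Ifit*, *Gbp*, *Oas*, *Irgm* and *H2* families have near copies elsewhere in the genome, so that reads of shared stretches may be missing or misplaced in their values.

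The genes of MHC class I presentation followed another order of cultures. *B2m*, which encodes the invariant light chain, had the largest mean of all members, 621 RPKM, with 379, 701 and 466 RPKM in the WT cultures, against 502, 1209.7 and 469.6 RPKM in the Ucp1-KO cultures. The heavy chain gene *H2-K1* had 162, 262 and 193 RPKM in the WT cultures, against 171, 377 and 177 RPKM in the Ucp1-KO cultures. The heavy chain gene *H2-D1* had 101, 178 and 112 RPKM in the WT cultures, against 123, 299 and 116 RPKM in the Ucp1-KO cultures. *Tap1*, a subunit of the transporter that brings peptides to the heavy chains, had 7.11, 11.8 and 8.66 RPKM in the WT cultures, against 8.23, 16.4 and 7.71 RPKM in the Ucp1-KO cultures. For all 4 genes Ucp1-KO replicate 14 was highest, WT replicate 11 next and WT replicate 10 lowest, while Ucp1-KO replicates 13 and 15 stayed within the range of the WT cultures. *Cxcl10*, a chemokine that attracts T cells, had a mean under 5 RPKM and the same highest, next highest and lowest cultures.

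**Figure D1:**
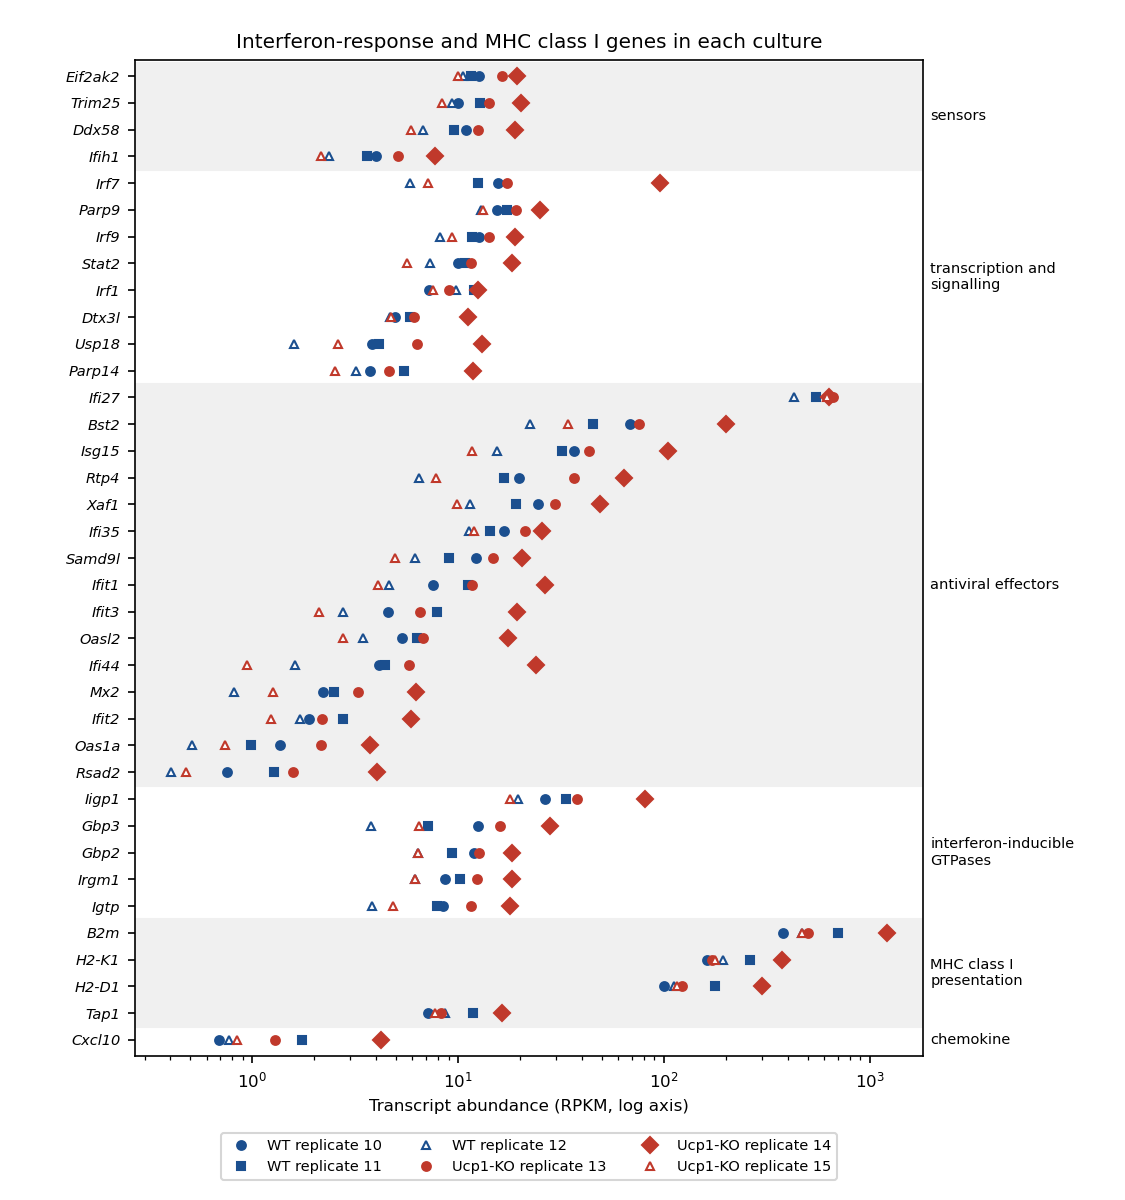
RPKM of the 37 genes in each culture on a log axis, with genes grouped by role, WT cultures in blue and Ucp1-KO cultures in red. Ucp1-KO replicate 14 (filled diamond) is the rightmost point for 36 of 37 genes, and WT replicate 12 and Ucp1-KO replicate 15 (open triangles) hold the lowest value for 31.

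The comparison of genotypes asks whether loss of UCP1 changes these genes in differentiated brown adipocytes. All 37 members had a log2 fold change above 0, that is a higher mean of log2(RPKM + 1) in Ucp1-KO, against 49.6% of all transcripts tested. Their median log2 fold change was 0.40, against 0.00 over all transcripts, and ranged from 0.0067 for *Irf1* to 1.08 for *Irf7*. None of these differences passed the test. In limma with Benjamini-Hochberg adjustment, 0 of 37 members had an adjusted p under 0.05 (0% of all transcripts tested), and the adjusted p of the members lay between 0.876 and 0.997. Without adjustment, 0 of 37 members had a p under 0.05, against 5.54% of all transcripts and 2.3% that were higher in Ucp1-KO, and the same counts of 0 came from limma-voom on the read numbers recovered from RPKM. Over all 16865 transcripts, each of these fits made 0 calls after adjustment, so *Ucp1* itself was not called. The paper's own comparison with DESeq2 did report differential genes, *Ucp1* among them. The absence of calls among the members therefore does not show equal abundance. The genotypes did not separate for any member either, as the number of members with all Ucp1-KO values above all WT values was 0, against 11.2% of all transcripts that did not overlap in either direction. Exact two-sided permutation tests gave p between 0.3 and 1, where 3 against 3 cultures cannot give less than 0.1. The limma p-values set the difference between genotypes against the spread between these cultures. Markers of other cell types also differed in sign between the genotypes in the same fit, again with 0 called after adjustment. Stromal markers had a log2 fold change below 0 for 10 of 10 tested (median -0.48), with 2 at an unadjusted p under 0.05 and 3 whose genotypes did not overlap, and endothelial markers for 6 of 6 (median -0.39), whereas macrophage and leukocyte markers were above 0 for 9 of 11 (median 0.17). Brown adipocyte markers were above 0 for 9 of 10 (median 0.14). The part of any of these cell types in the difference between genotypes was not tested.

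The members with the 3 largest differences also had large errors. *Irf7* averaged 11.3 ± 5.04 RPKM over the WT cultures and 39.98 ± 48.3 RPKM over the Ucp1-KO cultures (SD, n = 3 each), a log2 fold change of 1.08 ± 0.86 (SE, limma adjusted p = 0.885). *Rtp4* averaged 14.4 ± 7.01 and 36.02 ± 27.9 RPKM, a log2 fold change of 0.98 ± 0.75 (SE, limma adjusted p = 0.878). *Bst2* averaged 45.3 ± 23.02 and 103.8 ± 86.9 RPKM, a log2 fold change of 0.96 ± 0.66 (SE, limma adjusted p = 0.876). For these genes the SD of the Ucp1-KO cultures was above the difference between the means. *Oas1a*, an oligoadenylate synthetase, had the smallest unadjusted p, 0.131 in limma. *Gbp3* followed with 0.134 and a log2 fold change of 0.93 ± 0.55 (SE). Among the genes of MHC class I presentation the log2 fold change was 0.40 ± 0.40 for *B2m* and 0.16 ± 0.33 for *H2-K1* (SE). The median of the role groups was 0.52 for antiviral effectors, 0.55 for the GTPases, 0.33 for transcription and signalling, 0.32 for sensors and 0.26 for MHC class I presentation.

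The common direction rested on Ucp1-KO replicate 14. Without Ucp1-KO replicate 14, 21 of 37 members had a log2 fold change above 0 (43.7% of all transcripts) and 16 below, and the median was 0.030. *Irf7*, which had the largest difference, was then at 0.087. Genes with a negative value then included *Ifit3* (-0.25), *H2-K1* (-0.21), *Isg15* (-0.20) and *B2m* (-0.039). Those that stayed furthest above 0 were *Gbp3* (0.48), *Rtp4* (0.37), *Usp18* (0.36) and *Bst2* (0.30). Without Ucp1-KO replicate 15, the low culture, the median was 0.78 and 27 of 37 members had an unadjusted p under 0.05 (5.16% of all transcripts), but 0 passed after adjustment (smallest limma adjusted p = 0.838). When any other culture was left out, all 37 members stayed above 0, except for *Irf1* without WT replicate 10 (-0.16).

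**Figure D2:**
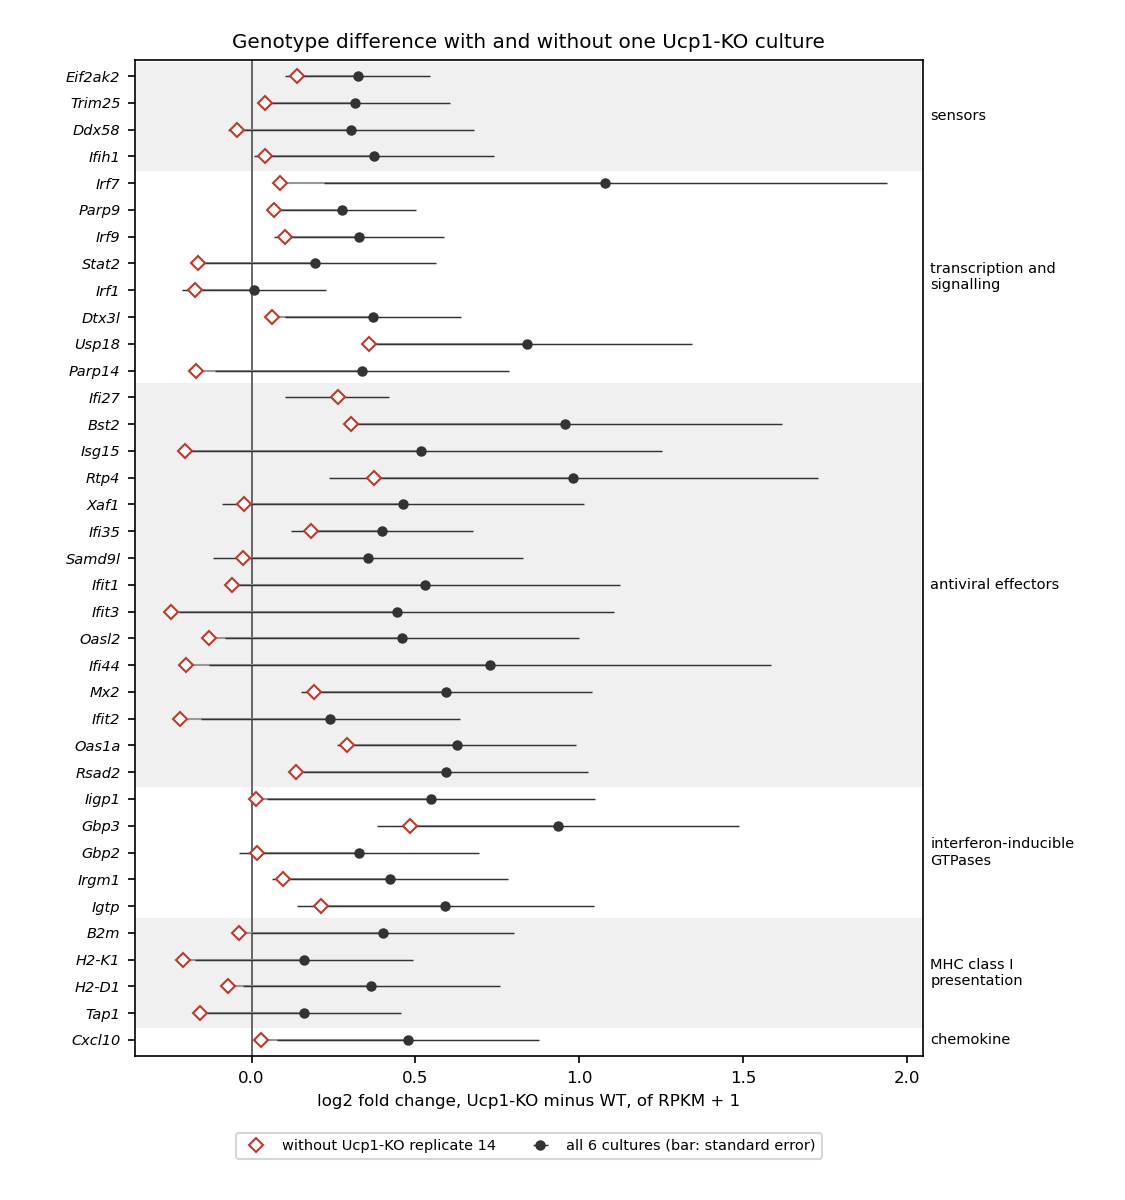
Log2 fold change of each gene, Ucp1-KO minus WT, from all 6 cultures (dots, bars are the standard error) and without Ucp1-KO replicate 14 (open diamonds). All 37 dots lie above 0, whereas 16 of 37 diamonds lie below 0.

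Differences between cultures of the same genotype were larger for these genes than for most transcripts. The median SD within genotype, on log2(RPKM + 1), was 0.62 for the members and 0.17 for all transcripts tested. It was 0.79 in Ucp1-KO (0.17 for all) and 0.37 in WT (0.14 for all), so the members varied in both genotypes. An SD above the 95th percentile of all transcripts, 0.51, was found for 28 of 37 members (75.7%). The SD was largest for *Irf7* (1.37), *Ifi44* (1.37), *Rtp4* (1.19) and *Isg15* (1.18). At the other end, *Ifi27* (0.21) was at the 63.6th percentile of all transcripts, and *Irf1* (0.33) and *Eif2ak2* (0.33) were low among the members. The ratio of the highest to the lowest culture in RPKM had a median of 4.52 over the members and 1.48 over all transcripts. By role, the median SD was 0.85 for antiviral effectors, 0.71 for GTPases, 0.57 for MHC class I presentation, 0.51 for sensors and 0.49 for transcription and signalling. For other lists this median was 1.65 for macrophage and leukocyte markers, 0.94 for endothelial and 0.45 for stromal markers. It was 0.52 for other interferon-stimulated genes, 0.35 for other antigen-presentation genes, 0.21 for receptors, kinases and feedback genes and 0.19 for brown adipocyte markers. Without Ucp1-KO replicate 14 the median SD of the members was 0.45, against 0.18 for all transcripts.

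**Figure D3:**
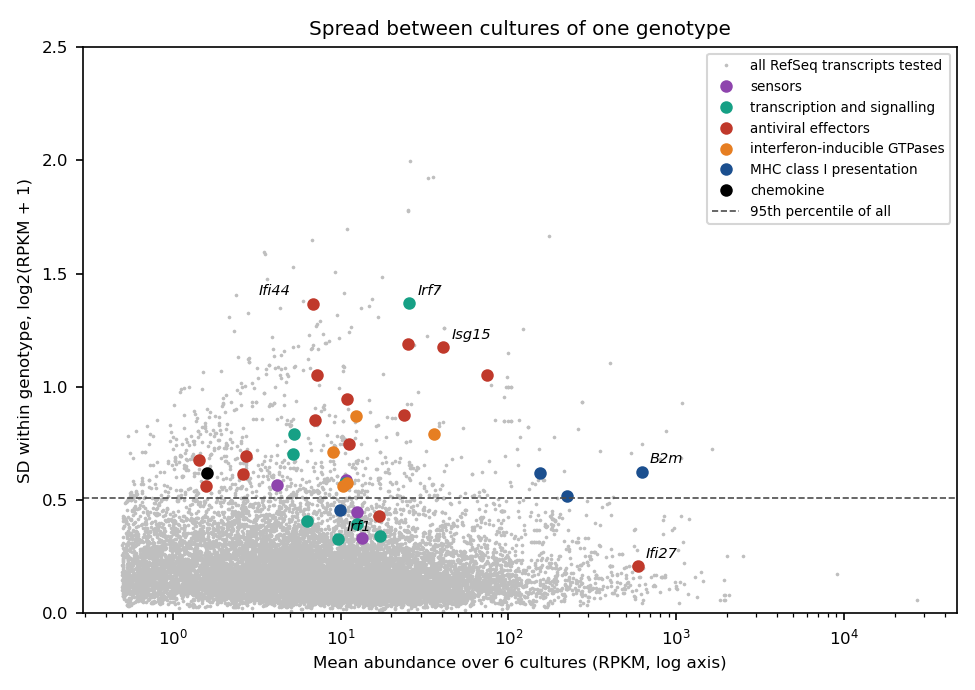
SD within genotype of log2(RPKM + 1) against mean RPKM (log axis) for all transcripts tested (grey) and the 37 genes (coloured by role), with the 95th percentile of all transcripts as a dashed line. 28 of 37 genes lie above the line, among them Irf7, Ifi44 and Isg15, and Ifi27 lies well below it.

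Ucp1-KO replicate 14 held the highest value for 36 of 37 members, against 15.3% of all transcripts. The exception was *Ifi27*, which was highest in Ucp1-KO replicate 13. Relative to the mean of the WT cultures, the RPKM of the members in Ucp1-KO replicate 14 was higher by a median of 2.65-fold, from 1.18-fold for *Ifi27* to 8.43-fold for *Irf7*. The order replicate 14, then 13, then 15 held for 35 of 37 members, against 16.3% of all transcripts. Ucp1-KO replicate 13 was above all WT cultures for 28 members, whereas Ucp1-KO replicate 15 was above all WT cultures for 0 members and below all of them for 15. Among the WT cultures, replicate 12 was the lowest for 31 of 37 members, against 23.3% of all transcripts. The median deviation of the members from their mean over 6 cultures, on log2(RPKM + 1), came to -0.067, 0.016 and -0.57 in the WT cultures and to 0.26, 1.05 and -0.58 in the Ucp1-KO cultures. The same medians over all transcripts lay between -0.064 and 0.050. Scaling the cultures by the median of ratios moved RPKM by factors of 0.948 to 1.04.

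The members also moved together within the genotypes. Over the 666 pairs of members, Pearson's r between deviations from the genotype mean in 6 cultures had a median of 0.93, against 0.088 over all pairs of genes tested, and r exceeded 0.8 in 74.8% of the member pairs and 11.1% of all pairs. All points share the same 6 libraries, and leaving out 1 culture gave medians between 0.86 and 0.97. The members least like the others, by their median r with them, were *Ifi27* (0.35), *Irf1* (0.64), *H2-K1* (0.70), *Tap1* (0.74), *B2m* (0.75), *H2-D1* (0.77) and *Cxcl10* (0.86). Those most like the others were *Isg15* (0.97), *Usp18* (0.97) and *Stat2* (0.97). In the genes of MHC class I presentation, *Irf1* and *Cxcl10*, WT replicate 10 was the lowest culture and WT replicate 11 the next highest after Ucp1-KO replicate 14. For MHC class I presentation this deviation came to -0.45, 0.29 and -0.22 in the WT cultures and to -0.21, 0.94 and -0.28 in the Ucp1-KO cultures. For antiviral effectors it came to -0.012, 0.0088 and -0.80 in the WT cultures and 0.35, 1.21 and -0.88 in the Ucp1-KO cultures.

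Markers of macrophages also stood out in Ucp1-KO replicate 14. The macrophage and leukocyte markers with a row summed to 86.7, 295 and 163 RPKM in the WT cultures and to 225, 1179.9 and 50.1 RPKM in the Ucp1-KO cultures. All 11 of these markers that were tested were highest in Ucp1-KO replicate 14 and lowest in Ucp1-KO replicate 15, as were *Lyz2*, the lysozyme of myeloid cells, with 39.3, 125 and 75.9 RPKM in the WT cultures, against 127, 657 and 29.98 RPKM in the Ucp1-KO cultures, and *C1qb*, a complement subunit, with 9.43, 38.9 and 18.5 RPKM in the WT cultures, against 22.9, 121 and 2.58 RPKM in the Ucp1-KO cultures. Lymphocyte markers were near 0, with *Cd3e* listed at 0 in all cultures and 2 reads in all for each of *Cd79a* and *Nkg7*. The order of cultures was not the same for markers and members. WT replicate 11 had the largest marker sum of the WT cultures and WT replicate 10 the smallest, as for MHC class I presentation. By contrast, the median deviation of the antiviral effectors was about equal in WT replicates 10 and 11 and low in WT replicate 12. Single genes differed, as 7 of the 15 antiviral effectors were higher in WT replicate 11 than in WT replicate 10. When the 7519 genes with a mean of at least 5 RPKM were ranked by RPKM + 1 in Ucp1-KO replicate 14 over the next highest culture, *Irf7* was at rank 1 and *Lyz2* at rank 2. Of the top 50, 10 were members, which is 20% of that list and 32.3% of the 31 members with such a mean, whereas the list held 0.665% of all genes ranked. That mean included Ucp1-KO replicate 14, and *Ifi44*, *Usp18*, *Parp14*, *Ifit3* and *Oasl2* reached 5 RPKM only through this culture. These shares are therefore partly set by the filter. A further 8 of the top 50 were macrophage and leukocyte markers, of 9 that were ranked, and 5 were on the lists of other genes of the pathway. On none of the lists were 27, among them *Siglec1*, *Ctss* and *Fcer1g*, which are known from myeloid cells, and *Ly6e* and *Ifi27l2a*. These 27 were not sorted by cell type or pathway. The markers *Mrc1* and *Csf1r*, as well as *Siglec1*, also reached a mean of 5 RPKM only through Ucp1-KO replicate 14. The part of macrophages in the results for the members was not tested.

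**Figure D4:**
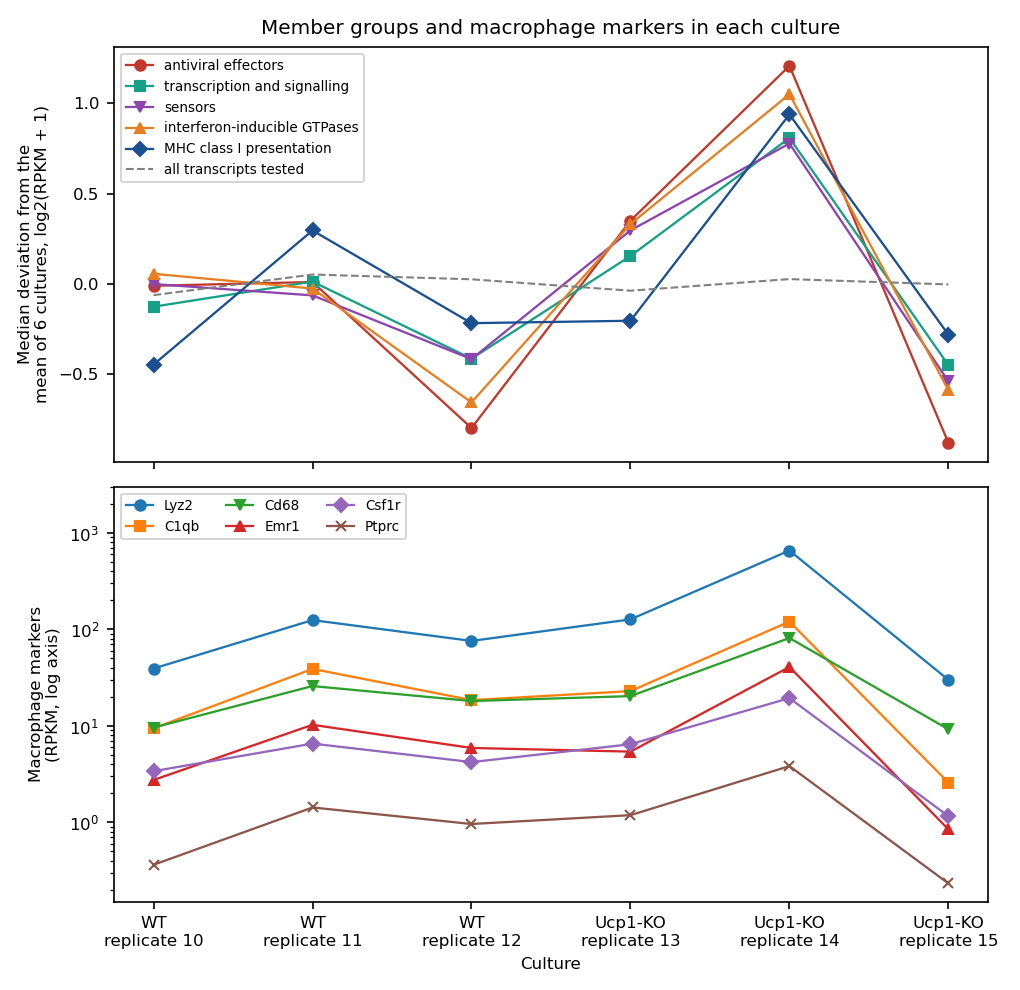
Top, median deviation of each role group from its mean over 6 cultures, on log2(RPKM + 1), with all transcripts as a dashed line; bottom, RPKM of 6 macrophage markers on a log axis, with lines joining the points of a gene or group only to guide the eye. Both panels peak in Ucp1-KO replicate 14, and in the WT cultures the antiviral effectors are lowest in replicate 12 (-0.80) but Lyz2 is lowest in replicate 10 (39.3 RPKM).

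Other genes of the pathway were taken from lists and read from the same comparison. Of 14 interferon genes, 11 were listed at 0 in every culture and none reached the minimum abundance. *Ifnz* had 8 reads in all 6 cultures together, *Ifnk* 4 and *Ifnb1* 2. Of 26 receptors, kinases and feedback genes 25 were tested, with 12 higher and 13 lower in Ucp1-KO and a median log2 fold change of -0.0093. None of these passed after adjustment, and 4 had an unadjusted p under 0.05, all lower in Ucp1-KO, against 3.24% of all transcripts. The smallest p was that of *Myd88*, an adaptor of Toll-like receptors, with 17.4, 22.1 and 20.05 RPKM in the WT cultures, against 14.2, 15.8 and 11.9 RPKM in the Ucp1-KO cultures, values that did not overlap (log2 fold change -0.48 ± 0.13, SE, limma adjusted p = 0.868). *Socs3*, a feedback inhibitor of cytokine signalling, followed with 4.95, 10.9 and 5.93 RPKM in the WT cultures, against 3.604, 3.65 and 1.47 RPKM in the Ucp1-KO cultures, which did not overlap either (log2 fold change -1.07 ± 0.34, SE, limma adjusted p = 0.868). *Ifngr1*, a chain of the interferon gamma receptor, was the most abundant gene of this list, with a mean of 51.9 RPKM. Of the 25 genes, 8 were highest in Ucp1-KO replicate 14.

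Most of the other interferon-stimulated genes were also highest in Ucp1-KO replicate 14. Of 56 listed genes 45 were tested, with 37 higher (49.6% of all transcripts) and 8 lower in Ucp1-KO and a median log2 fold change of 0.30. In limma, 0 of 45 passed after adjustment and 0 had an unadjusted p under 0.05 (5.54% of all transcripts), and 39 of 45 (86.7%) had their highest value in that culture, against 15.3% of all transcripts. Of these 39, *Oas3*, *Ccl5*, *Cmpk2*, *Gbp9* and *Apol9b* reached the minimum mean of 0.5 RPKM only through Ucp1-KO replicate 14, so the filter set part of this share. The most abundant were *Lgals3bp*, a secreted glycoprotein, with 292, 283 and 197 RPKM in the WT cultures, against 353, 439 and 189.7 RPKM in the Ucp1-KO cultures, and *Ifitm3*, which blocks entry of viruses, with 197, 206 and 121 RPKM in the WT cultures, against 197, 326 and 80.6 RPKM in the Ucp1-KO cultures. Of 29 other antigen-presentation genes 25 were tested, with 19 higher and 6 lower in Ucp1-KO, a median log2 fold change of 0.20 and 17 of 25 highest in Ucp1-KO replicate 14. *H2-Q6* was among these 17 and reached the minimum abundance only through that culture. None of the 25 genes passed after adjustment, and 1 of 25, the nonclassical MHC class I gene *H2-T22*, had an unadjusted p under 0.05, against 5.54% of all transcripts. It stood at 11.8, 11.2 and 9.59 RPKM in the WT cultures and at 15.7, 34.2 and 14.6 RPKM in the Ucp1-KO cultures, so that the genotypes did not overlap, as for 11.2% of all transcripts (log2 fold change 0.83 ± 0.30, SE, limma adjusted p = 0.868). The chaperones *Calr* and *Pdia3* were the most abundant of this list, with means of 269 and 102 RPKM, and both were highest in WT replicate 11. Without Ucp1-KO replicate 14, the median log2 fold change was -0.021 for the other interferon-stimulated genes and -0.021 for the other antigen-presentation genes.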

How the data were processed

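The authors sequenced single reads of 50 bases from libraries that do not mark strand, mapped them to mouse build 38, used Genomatix software to assign unique reads to annotated transcripts, and deposited RPKM values. The submitters' processing notes also name CASAVA and bcl2fastq. The reference is of another strain than the mice. Genotype and replicate number came from the sample labels.

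The members and lists were chosen with earlier results of these data known. All RefSeq rows whose 6 cultures averaged 0.5 RPKM or more entered a limma fit (limma 3.58.1, R 4.3.3, trended empirical Bayes, no covariate) on log2(RPKM + 1), with p-values adjusted by Benjamini-Hochberg over all 16865 transcripts with a threshold of 0.05. The comparison was tested on simulated data in which noise was independent between transcripts. Those data held neither deviations shared between genes nor an outlying culture, so the simulation does not cover these features. A fold change on this scale understates that of scarce transcripts.

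Values in every culture are given for members with a mean of at least 5 RPKM, and for any with an unadjusted p under 0.05 or separate genotypes. Of each list, the 2 most abundant genes and up to 2 with the smallest unadjusted p under 0.05 are named. Others named were chosen after their values were seen. A gene that this rule covers is not reported here. Reads were recovered from RPKM as whole multiples of what 1 read is worth. All 16865 tested transcripts (100% of them) gave whole reads within 0.01 read in all cultures. The fewest reads of a member in a culture were 13. Reads are not independent molecules, and read numbers cover counting error only. Gene positions are from GENCODE M21, and promoters from RefSeq. Python 3.11.15 with pandas 2.3.3, numpy 2.4.6, scipy 1.17.1 and matplotlib 3.10.9 was used otherwise. Alternatives were 0.1 RPKM in place of 1, no minimum abundance, 1 transcript per gene, median-of-ratios scaling, limma-voom on recovered reads, leaving out each culture, and 1 mismatch in the response element. Leaving out cultures for the lists and for the count of members higher in Ucp1-KO was added after seeing the data.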

Additional observations from a re-analysis of the deposited data

How the results depend on the processing

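No paired analysis was made, because the labels give no batch or pairing of the WT and Ucp1-KO cultures, which share no replicate number. Under the 5 alternatives that kept all cultures, all 37 members stayed higher in Ucp1-KO and 0 were called by limma or limma-voom. Their median log2 fold change was 0.43 with 0.1 RPKM added, 0.41 with median-of-ratios scaling and 0.46 with limma-voom. Without a minimum abundance, 22 of 28890 transcripts were called, 0 of them members. Leaving out 1 culture gave 0 calls over all transcripts each time, and a median of the members between 0.030 and 0.78. The number of members higher in Ucp1-KO lay between 21 and 37, with 21 without Ucp1-KO replicate 14. Allowing 1 mismatch in the response element raised its share of member promoters to 76.7%, and that of all genes to 34.7%.

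The log2 fold changes that turned negative did so without Ucp1-KO replicate 14, *Irf1* also without WT replicate 10. Over the cultures left out, they ranged from -0.060 to 1.15 for *Ifit1*, -0.22 to 0.60 for *Ifit2*, -0.25 to 1.11 for *Ifit3*, -0.20 to 1.33 for *Isg15*, -0.13 to 1.016 for *Oasl2*, -0.17 to 0.16 for *Irf1*, -0.16 to 0.60 for *Stat2*, and -0.043 to 0.72 for *Ddx58*. The ranges were -0.20 to 1.64 for *Ifi44*, -0.16 to 0.34 for *Tap1*, -0.039 to 0.65 for *B2m*, -0.21 to 0.36 for *H2-K1*, -0.072 to 0.61 for *H2-D1*, -0.023 to 1.08 for *Xaf1*, -0.17 to 0.76 for *Parp14* and -0.026 to 0.90 for *Samd9l*. With 1 culture left out, the median over the receptors, kinases and feedback genes lay between -0.18 and 0.076. The cause of these changes was not tested.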
